A study of Rattus norvegicus with 64 samples.

Results

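Interferon-stimulated genes are genes that cells switch on when an interferon binds its receptor. The 34 genes described here were chosen by symbol, with earlier results of these data already known. All of them were listed in every deposited file, where 17366 genes were listed throughout. Whole blood had been drawn by cardiac puncture from adult male Sprague-Dawley rats of 85 to 90 days, 3 h after the last of 4 injections given 2 h apart, and was frozen at once. There were 5 groups: saline at 22.5 °C (the room-temperature control, 4 rats used), saline at 16 °C (5 rats), D-amphetamine (AMPH) at 16 °C (13 rats), AMPH at 22.5 °C (22 rats) and saline at 39 °C, called environmentally-induced hyperthermia (EIH, 15 rats). By the study's design both saline groups below 39 °C stayed normothermic, AMPH at 16 °C was a non-neurotoxic exposure and AMPH at 22.5 °C a neurotoxic one. Globin mRNA had been depleted from every sample, and 5 of the 64 rats were left out for more than 5000 counts of the muscle transcript Mb.

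Type I interferon acts through the receptor chains Ifnar1 and Ifnar2 and the kinases Jak1 and Tyk2, which activate Stat2. A complex that holds Stat2 and Irf9 binds interferon-stimulated response elements in the promoters of its target genes. The targets include cytosolic sensors of viral RNA and DNA, enzymes that block viral translation and replication, the ubiquitin-like modifier Isg15, and factors such as Irf7 and Usp18 that raise or damp the signal. In blood these genes are used as a readout of interferon exposure of leukocytes, and their levels also differ between leukocyte types.

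Levels are given as CPM (counts scaled to each library's TMM-corrected total), which allow rats to be compared for 1 gene but not genes with each other, since no gene lengths were used. Total counts were 19055615 to 40530319 per rat, and the lowest count of any of the 34 genes in a rat used was 7. A gene was called changed at a Benjamini-Hochberg adjusted p below 0.05 and an absolute log2 fold change above 0.58 in an edgeR quasi-likelihood fit over all 59 rats. The fit held the group and a code carried by each deposited file (13 codes among these rats), whose meaning was not given in the sources used here. AMPH 16 °C replicate 10 and AMPH 22.5 °C replicate 21 were each alone in their code, so the fitted differences took nothing from them. The study describes 1 control group of 6 rats whose libraries were first sequenced after poor amplification and then again. It lost 2 rats to high Mb, as did the control here, which also began with 6 rats. The labels do not say whether the control libraries used here belong to that group or to which of its sequencing runs, so every comparison with the control carries this doubt. Saline at 22.5 °C shared such codes only with AMPH at 22.5 °C (2 codes), so its differences from the other groups were reached through those AMPH rats.

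Of the AMPH rats at 22.5 °C, 3 stood apart from the other 19 for the genes described below (replicates 16, 17 and 20). Hspa1b, the heat-inducible Hsp70 gene, was at 1.42, 0.296 and 42.6 CPM in these rats, and its highest value in a rat of the normothermic groups was 17.6 CPM (AMPH 16 °C replicate 4). Replicates 16 and 17 were thus within the normothermic range for Hspa1b and replicate 20 was above it. All of them carried the code shared with 3 of the 4 control rats, and whether their labels are right could not be told from the files. The fit was repeated without replicates 16 and 17, which were picked by Hspa1b, and without all 3, which were picked by Rsad2 and Bst2, so that for those 2 genes the latter is a description and no test.

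The promoters of 24 of the 34 genes were found by symbol in the RefSeq table (build GRCr8, 250 bases before to 50 after each gene's start). The letters GAAA, any 2 bases and GAAA again, the core of an interferon-stimulated response element, were searched on both strands, and overlapping matches were kept. They were found in 15 of these 24 promoters (62.5%) and in 3.92% of the 33469 promoters of the table. The promoters of Rsad2 and Bst2 are shown because these 2 genes differed most between AMPH at 16 °C and both hyperthermic groups, in opposite directions. Those of Oas1a and Oas1b are shown as near copies of each other, and those of Eif2ak2 and Ifih1 as the pair whose levels correlated most closely. Capitals mark the match, or 2 overlapping matches, to these letters or to their reverse complement. Rsad2 is the stretch chr6:48788121-48788370 (minus strand) and Bst2 is chr16:18254968-18255217 (minus strand). Oas1a is chr12:41330400-41330465 (plus strand), Oas1b chr12:41395871-41395936 (minus strand), Eif2ak2 chr6:21941113-21941153 (plus strand) and Ifih1 chr3:67683993-67684052 (minus strand).
Rsad2: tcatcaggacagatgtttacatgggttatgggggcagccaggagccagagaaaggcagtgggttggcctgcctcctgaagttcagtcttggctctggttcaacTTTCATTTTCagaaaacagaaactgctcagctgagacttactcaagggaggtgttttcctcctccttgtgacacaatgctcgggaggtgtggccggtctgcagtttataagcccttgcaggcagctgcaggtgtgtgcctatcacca
Bst2: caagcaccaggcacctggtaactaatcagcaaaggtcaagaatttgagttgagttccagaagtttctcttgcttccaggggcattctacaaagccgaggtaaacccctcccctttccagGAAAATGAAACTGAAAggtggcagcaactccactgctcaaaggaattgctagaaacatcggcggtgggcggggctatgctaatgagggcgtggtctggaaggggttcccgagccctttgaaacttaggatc
Oas1a: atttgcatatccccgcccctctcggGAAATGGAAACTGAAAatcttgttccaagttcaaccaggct
Oas1b: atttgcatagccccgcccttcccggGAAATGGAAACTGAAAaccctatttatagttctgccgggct
Eif2ak2: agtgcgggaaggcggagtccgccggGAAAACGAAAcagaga
Ifih1: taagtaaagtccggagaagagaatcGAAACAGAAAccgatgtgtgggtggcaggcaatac

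Both Rsad2 and Bst2 held the letters, with the Rsad2 match on the opposite strand to the gene. No match was found in the windows of Herc6, Cmpk2 and Trim25, which says only that these letters were not there.

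Rsad2 encodes viperin, an endoplasmic reticulum enzyme that makes a chain-terminating nucleotide. Its levels were 686, 1282, 686 and 1077 CPM in the control rats (replicates 17, 18, 19 and 21) and 1203, 490, 776, 906 and 794 CPM in saline rats 1 to 5 at 16 °C. AMPH rats at 16 °C had 704.9 to 1811 CPM (median 1111). AMPH rats at 22.5 °C had 69.4 to 848 CPM (median 172), and EIH rats had 68.1 to 691 CPM (median 217). Of the 22 AMPH rats at 22.5 °C, 19 lay below the lowest of all 22 rats of the normothermic groups (490 CPM), and the 3 rats that did not were replicates 16, 17 and 20, at 848, 747 and 695 CPM. Among EIH rats only replicate 6, at 691 CPM, was within the normothermic range, and EIH did not overlap AMPH at 16 °C.

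Bst2 encodes tetherin, a membrane protein that holds budding virus particles at the cell surface. Its levels were 14.6, 17.9, 17.4 and 16.7 CPM in the control rats and 21.1, 26.5, 25.7, 18.3 and 30.5 CPM in saline rats at 16 °C. AMPH rats at 16 °C had 7.65 to 27.6 CPM (median 12.4). AMPH rats at 22.5 °C had 11.1 to 207 CPM (median 85.1), and EIH rats had 71.6 to 205 CPM (median 113). Every EIH rat lay above the highest normothermic rat (30.5 CPM), as did 19 of the 22 AMPH rats at 22.5 °C. The other 3 were again replicates 16, 17 and 20, at 15.8, 11.1 and 23.0 CPM, so that the same rats lay in the normothermic range for both genes. Without them the AMPH group at 22.5 °C had 44.1 to 207 CPM of Bst2 and 69.4 to 353 CPM of Rsad2.

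**Figure D1:**
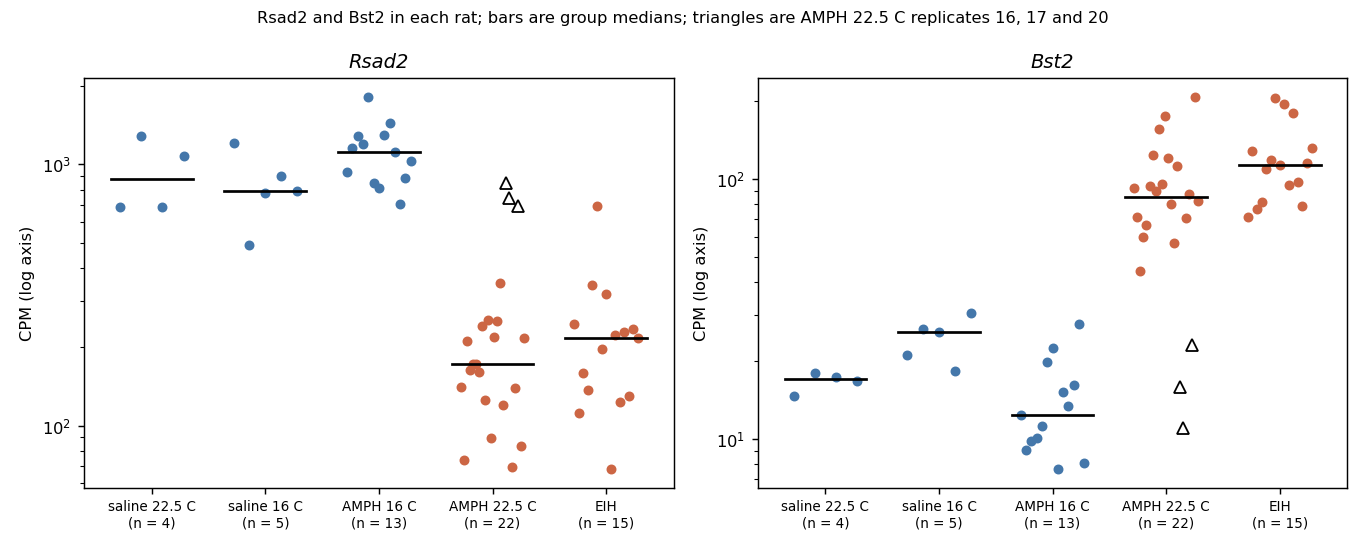
Rsad2 and Bst2 in each rat of the 5 groups, in CPM on a log axis, with the group median as a bar, hyperthermic groups in orange, the others in blue and AMPH 22.5 °C replicates 16, 17 and 20 as open triangles. EIH and 19 of 22 AMPH 22.5 °C rats lay below (Rsad2, apart from EIH replicate 6 at 691 CPM) or above (Bst2) the rats of the 3 normothermic groups.

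The comparison of AMPH at 22.5 °C with AMPH at 16 °C asked what the environment adds when both groups receive AMPH. There 7 of the 34 genes were called, 1 higher and 6 lower, and 7.05% of the 14000 genes tested were called (3.96% higher and 3.09% lower). Bst2 rose by 2.68 ± 0.29 (log2 ± SE, 6.42-fold, adjusted p = 2.66e-08) and Rsad2 fell by 2.73 ± 0.34 (6.64-fold, adjusted p = 5.86e-07). Within each of the 5 codes that held both groups, Rsad2 was lower at 22.5 °C, by -3.45 to -2.16 (log2 difference of means), and Bst2 was higher, by 1.25 to 3.29. Over the 34 genes the median log2 difference was -0.447 and 30 were negative, against a median of 0.0183 over all genes. The ranges of the groups overlapped for all 34 genes, as they did for each of the 14000 (0.0%).

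The other 5 genes called in this comparison were all lower at 22.5 °C. Herc6, which in rodents is the ligase that attaches Isg15 to proteins, fell by 1.13 ± 0.24 (adjusted p = 0.00177). It stood at 14.4 to 77.4 CPM (median 27.9) in AMPH rats at 16 °C and at 5.42 to 55.6 CPM (median 16.0) at 22.5 °C. The highest of the latter was replicate 16, and the groups overlapped. Without replicates 16, 17 and 20 the highest was 23.8 CPM.

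Ifih1, the cytosolic sensor MDA5 of long double-stranded RNA, had 13.7 to 38.6 CPM (median 22.9) at 16 °C and 3.09 to 50.03 CPM (median 14.4) at 22.5 °C. It fell by 0.77 ± 0.20 (adjusted p = 0.00881). Eif2ak2, the kinase PKR that halts translation when it binds double-stranded RNA, had 13.4 to 39.4 CPM (median 23.7) at 16 °C and 2.52 to 65.0 CPM (median 14.1) at 22.5 °C, and fell by 0.74 ± 0.24 (adjusted p = 0.0419). For both genes replicate 16 was the highest AMPH rat at 22.5 °C and replicate 21 the lowest, and the groups overlapped. Without replicates 16, 17 and 20 the highest values at 22.5 °C were 24.99 CPM for Ifih1 and 25.9 CPM for Eif2ak2.

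Ifit1, which binds viral RNA that lacks the cap methylation of host mRNA, had 167 to 527 CPM (median 361.0) at 16 °C and 12.0 to 377 CPM (median 105) at 22.5 °C. It fell by 1.67 ± 0.51 (adjusted p = 0.0295), with overlapping ranges, and its highest value at 22.5 °C was 241 CPM without replicates 16, 17 and 20. Cmpk2, a mitochondrial nucleotide kinase encoded next to Rsad2, had 133 to 307 CPM (median 169) at 16 °C and 46.7 to 262 CPM (median 112) at 22.5 °C, and fell by 0.76 ± 0.25 (adjusted p = 0.0441). All 5 of these genes were lower at 22.5 °C in 5 of 5 codes. The calls of the 7 genes were kept under all 23 alternative settings, and 10 genes were called without replicates 16 and 17 (7.74% of all genes) and 11 without replicates 16, 17 and 20 (8.09%).

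**Figure D2:**
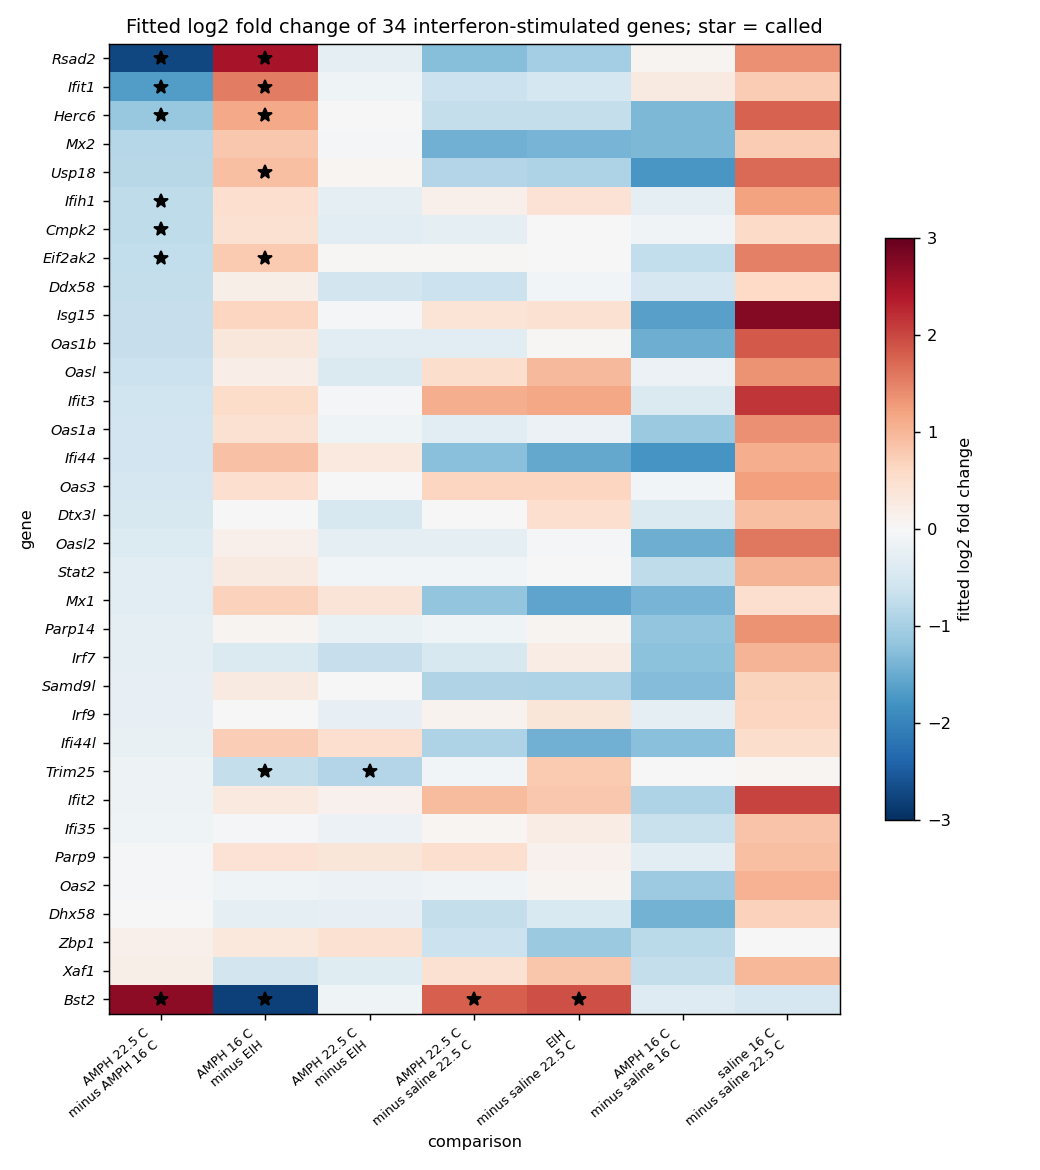
Fitted log2 differences of the 34 genes in the comparisons between groups, with calls marked by stars. Bst2 and Rsad2 lie farthest from 0 where AMPH 16 °C is compared with AMPH 22.5 °C or EIH, and the 34 genes lean lower in AMPH 22.5 °C minus AMPH 16 °C (median -0.447).

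AMPH at 16 °C and EIH shared 5 codes, and differed in both drug and temperature. Here 7 of the 34 genes were called, 5 higher and 2 lower in AMPH at 16 °C, beside 10.0% of all genes (4.74% higher and 5.27% lower). Rsad2 was higher in AMPH rats at 16 °C by 2.46 ± 0.37 (5.52-fold, adjusted p = 4.88e-06) and Bst2 was lower by -2.81 ± 0.28 (7.01-fold, adjusted p = 2.67e-09), in 5 of 5 codes each. These were the only members whose ranges did not overlap between the groups, and 0.814% of all genes did not overlap.

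Herc6 (1.13 ± 0.26, adjusted p = 0.0017), Eif2ak2 (0.78 ± 0.25, adjusted p = 0.0306) and Ifit1 (1.55 ± 0.52, adjusted p = 0.0377) were also higher in AMPH rats at 16 °C than in EIH rats. So was Usp18, a protease that removes Isg15 and blocks the interferon receptor (0.90 ± 0.31, adjusted p = 0.0444). It stood at 5.21 to 37.3 CPM (median 10.9) in AMPH rats at 16 °C and at 2.51 to 17.2 CPM (median 6.23) in EIH rats, and its call was lost under 2 of 23 alternatives. Trim25, a ubiquitin ligase that activates the RNA sensor RIG-I, was lower by -0.71 ± 0.20 (adjusted p = 0.013), a call that was lost without the code (-0.461, adjusted p = 0.131) and with the replicate block in its place (-0.485, adjusted p = 0.15). Because both of these comparisons use the same AMPH rats at 16 °C, the genes they share are not independent counts.

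AMPH at 22.5 °C and EIH are the 2 hyperthermic groups, and shared 7 codes. Only Trim25 was called of the 34 genes, with 1.59% of all genes called (0.871% higher and 0.721% lower). It had 0.333 to 6.49 CPM (median 3.72) in AMPH rats and 2.67 to 7.77 CPM (median 4.97) in EIH rats, which overlapped. It was lower in AMPH rats by -0.87 ± 0.19 (1.83-fold, adjusted p = 0.00793) and in 7 of 7 codes. Without the code in the fit its difference was -0.49 (adjusted p = 0.115), so this call rests on the code. Rsad2 and Bst2 differed between these groups by -0.27 ± 0.33 (adjusted p = 0.702) and -0.13 ± 0.26 (adjusted p = 0.829).

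Against the control rats, AMPH at 22.5 °C had 1 of the 34 genes called, with 2.49% of all genes called (2.16% higher and 0.336% lower). This was Bst2, higher by 1.80 ± 0.41 (3.49-fold, adjusted p = 0.015) and in both codes that held the 2 groups, and its call was lost under 5 of 23 alternatives. Rsad2 had a fitted difference of -1.28 ± 0.49 that did not pass (adjusted p = 0.124). The Mx dynamin-like GTPases, which trap viral nucleocapsids, had differences of -1.45 ± 0.48 for Mx2 (adjusted p = 0.0813) and -1.19 ± 0.43 for Mx1 (adjusted p = 0.102), and Ifi44, a gene of poorly known function, one of -1.24 ± 0.46 (adjusted p = 0.112).

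This count rested on few rats. Without AMPH replicates 16 and 17, the rats with Hspa1b in the normothermic range, 12 of the 34 genes were called, 2 higher (Bst2 and Ifit3) and 10 lower, beside 18.1% of all genes. The lower genes were Mx2 (-2.37 ± 0.45, adjusted p = 0.000573), Rsad2 (-1.87 ± 0.49, adjusted p = 0.00796), Mx1 (-1.76 ± 0.41, adjusted p = 0.00358), Ifi44, Usp18, Zbp1, Herc6, Samd9l, Ifi44l and Dhx58. Without replicate 17 alone 7 genes were called (13.9% of all genes) and without replicate 16 alone 2 (3.45%). Without replicates 16, 17 and 20 the same 12 genes were called (19.3% of all genes). Leaving out control rat 17, 18 or 21 left 0 of the 34 genes called (0.129%, 0.086% and 0.0574% of all genes), and leaving out control rat 19 gave 4 (9.47%). These settings were chosen, for the AMPH rats, after the data had been seen.

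EIH differed from the control in both codes and temperature, and here too only Bst2 was called (1.93 ± 0.48, 3.81-fold, adjusted p = 0.0254), with 2.86% of all genes called (1.93% higher and 0.929% lower). This call was lost under 4 of 22 alternatives, namely without control rat 17, 18 or 21 (adjusted p = 0.0746, 0.0601 and 0.135) and with the replicate block in place of the code (adjusted p = 0.104). The next genes were Zbp1, a sensor of Z-form nucleic acids (-1.11 ± 0.34, adjusted p = 0.0573), Ifi44l (-1.45 ± 0.45, adjusted p = 0.0584), Mx1 (-1.57 ± 0.52, adjusted p = 0.0683) and Ifi44 (-1.54 ± 0.56, adjusted p = 0.0889). Rsad2 had a fitted difference of -1.01 ± 0.60 (adjusted p = 0.289). Ranges of EIH and control rats did not overlap for 4 genes (Bst2, Herc6, Samd9l and Zbp1), with 3.46% of all genes not overlapping. No code held both groups, so the fit reached this comparison through the AMPH rats at 22.5 °C, and without AMPH replicates 16 and 17 it called 8 of the 34 genes (17.2% of all genes), 1 higher and 7 lower, Rsad2 among them (-1.60 ± 0.58, adjusted p = 0.0486). Without replicates 16, 17 and 20 it called 10 (17.9% of all genes), 2 higher and 8 lower.

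AMPH at 16 °C against saline at 16 °C had 0 of the 34 genes called by edgeR and 0 by DESeq2, with 0.0% of all genes called by edgeR and 0.65% by DESeq2. At an unadjusted p below 0.05 there were 15 of the 34, all lower with AMPH, out of 1502 of 14000 genes. The median log2 difference of the 34 genes was -0.776, with 31 negative, against 0.00938 over all genes. The smallest p values belonged to Parp14, a mono-ADP-ribosyltransferase (-1.17 ± 0.34, adjusted p = 0.16), Oas1b (-1.47 ± 0.47, adjusted p = 0.2), Ifi44 (-1.76 ± 0.57, adjusted p = 0.202), Usp18 (-1.74 ± 0.57, adjusted p = 0.219) and Herc6 (-1.35 ± 0.45, adjusted p = 0.226). The 2 groups shared 1 code, which held all 5 saline rats and 1 AMPH rat, and no member had ranges that did not overlap (0.257% of all genes). Rsad2 (0.08 ± 0.59, adjusted p = 0.98) and Bst2 (-0.38 ± 0.47, adjusted p = 0.828) did not pass either.

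Saline at 16 °C against saline at 22.5 °C had 0 of the 34 genes called by edgeR and 0 by DESeq2, with 0.00714% of all genes called by edgeR and 0.479% by DESeq2. At an unadjusted p below 0.05 there were 13 of the 34, all higher at 16 °C, out of 1201 of 14000 genes. The median log2 difference was 1.01, with 33 of the 34 positive, against -0.037 over all genes. Ifit2 (2.03 ± 0.61, adjusted p = 0.26), Oas1b (1.84 ± 0.59, adjusted p = 0.291), Parp14 (1.34 ± 0.43, adjusted p = 0.299), Herc6 (1.77 ± 0.58, adjusted p = 0.311) and Ifit3 (2.13 ± 0.71, adjusted p = 0.335) had the smallest p values.

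In the CPM themselves 10 of the 34 genes did not overlap between the saline groups, with 8.94% of all genes not overlapping, and all 10 were higher at 16 °C. Isg15 had 195, 179, 226, 121 and 257 CPM at 16 °C and 32.8, 98.2, 55.3 and 80.6 CPM at 22.5 °C. Ifit2 had 133, 115, 95.4, 87.7 and 181 CPM at 16 °C and 31.5, 34.5, 65.2 and 46.6 CPM at 22.5 °C. The others were Bst2, Eif2ak2, Ifih1, Ifit3, Irf9, Oasl, Parp14 and Stat2. For Bst2 the fitted difference had the opposite sign (-0.50 ± 0.61, adjusted p = 0.841) to the CPM. The 2 groups shared no code, and temperature and code cannot be told apart in the CPM.

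The difference between the AMPH effect at 22.5 °C and that at 16 °C was called for 0 of the 34 genes by edgeR and 0 by DESeq2, with 0.0% and 0.364% of all genes called. At an unadjusted p below 0.05 in edgeR there were 6 of the 34, all positive, out of 1033 of 14000 genes. These included Bst2 (2.19 ± 0.62, adjusted p = 0.404), Ifit2 (1.87 ± 0.61, adjusted p = 0.472), Parp14 (1.05 ± 0.43, adjusted p = 0.61), Parp9 (0.82 ± 0.35, adjusted p = 0.629) and Ifit3 (1.53 ± 0.70, adjusted p = 0.642). Without AMPH replicates 16 and 17 only Bst2 was called of the 34 (2.60 ± 0.51, adjusted p = 0.0208, with 0.0934% of all genes called). Without replicates 16, 17 and 20 Bst2 was called as higher and Rsad2 as lower (0.187% of all genes). Those rats were picked by these same genes, so the latter is a description and no test.

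The transcription factors Irf7, Irf9 and Stat2 were not called in any comparison. Irf9, the DNA-binding part of the interferon complex, had 26.6 to 66.3 CPM over all EIH rats and 34.9 to 62.9 CPM over the normothermic groups. Stat2 had 27.4 to 64.5 CPM in EIH rats and 31.9 to 102 CPM in the normothermic groups. Irf7, the factor that amplifies interferon production, reached 4590 CPM in EIH replicate 8, beside an EIH median of 1187 CPM and a highest value of 1934 CPM in the normothermic groups. For Irf7, 5 AMPH rats at 22.5 °C lay below the normothermic range and 0 above it.

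Among the effectors, Mx1 had 120, 105, 46.4 and 79.7 CPM in the control rats 17, 18, 19 and 21, and saline rats at 16 °C had 56.0 to 97.9 CPM. AMPH rats at 16 °C had 23.3 to 69.8 CPM (median 32.2), AMPH rats at 22.5 °C 6.91 to 107 CPM (median 27.0, highest 39.1 without replicates 16, 17 and 20) and EIH rats 8.82 to 65.5 CPM (median 18.8). The groups overlapped, but 9 of the 22 AMPH rats at 22.5 °C lay below the lowest normothermic rat. The oligoadenylate synthetase family, of which some members make the second messenger that activates RNase L, held no call. Oas1a, Oas1b, Oas2, Oas3, Oasl and Oasl2 had group ranges that overlapped in all 7 comparisons of 2 groups, apart from Oasl between the saline groups. Oas1a and Oas1b, Mx1 and Mx2, and Ifit1 with Ifit1bl, which overlaps it in the RefSeq annotation, may share reads. This was not measured, so values of single copies are uncertain. Parp9 overlaps Dtx3l in the RefSeq annotation, Eif2ak2 overlaps LOC134479106 and Xaf1 overlaps Fbxo39. These values are uncertain in the same way, since the libraries were stranded but the methods name no strand setting for the counting.

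**Figure D3:**
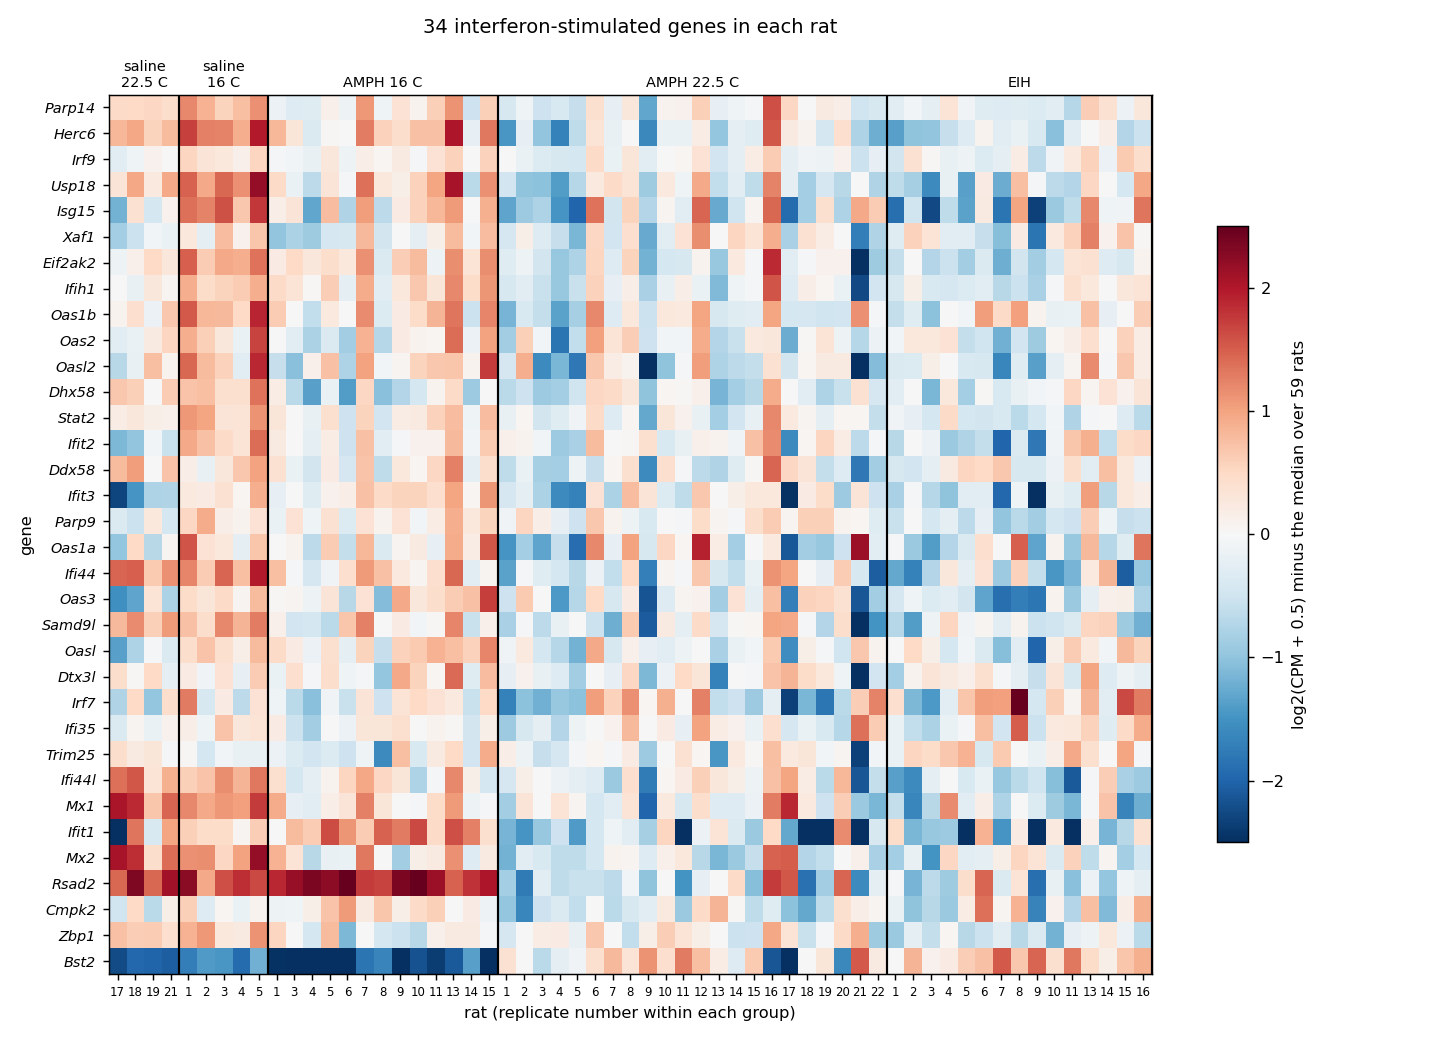
Level of each of the 34 genes in each of the 59 rats, as log2(CPM + 0.5) minus the gene's median over the 59 rats, with rats ordered by group. Single rats run through many genes as vertical stripes, as in AMPH 22.5 °C replicate 16, which was the highest of its group for 16 genes.

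A single rat lay at least 3-fold beyond the next rat of its group, with at least 10 counts in the higher of the pair, in 4 of the 170 combinations of gene and group. All of them were low values. Ifit1 was at 11.8 CPM (581 counts) in control rat 17, 10.8-fold below the next control rat at 128 CPM. It was at 2.80 CPM (76 counts) in EIH replicate 9, 6.48-fold below the next EIH rat at 18.1 CPM. Dtx3l, the partner ligase of Parp9, was at 0.950 CPM (20 counts) in AMPH 22.5 °C replicate 21, and Trim25 in the same rat at 0.333 CPM (7 counts), with the next rats at 3.19 and 1.03 CPM. The same number of entries, 4, was found with DESeq2 scaling.

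Over all 34 genes each rat was given a position, its mean distance in log2(CPM + 0.5) from its group's median. AMPH 22.5 °C replicate 16 had the highest position of any rat, at 1.02. It was the highest of its 22-rat group for 16 of the 34 genes, whereas it was the highest for 3.54% of all genes. AMPH 16 °C replicate 13 stood at 0.734 and was the highest of 13 rats for 15 of the 34 (6.69% of all genes), though it was the lowest for Rsad2. EIH replicate 9 had the lowest position, at -0.754, and was the lowest of its group for 9 of the 34 (8.49% of all genes).

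Among saline rats, replicate 5 at 16 °C stood at 0.45 and was the highest of 5 rats for 23 of the 34 genes (16.8% of all genes). Control rat 17 stood at -0.324 and was the lowest of 4 rats for 15 of the 34 (21.3% of all genes), with Isg15 at 32.8, Ifit2 at 31.5 and Ifit3 at 136 CPM. The same rat was the highest control rat for 5 of the 34 genes, among them Mx1 and Mx2 (12.1 CPM), beside 30.7% of all genes. Of the 4 control rats it had the lowest summed neutrophil (1129 CPM) and monocyte (3079 CPM) markers and the highest T-cell sum (460 CPM). AMPH 22.5 °C replicate 17 was the lowest of 22 rats for 6 of the 34 (11.5% of all genes), namely Bst2, Ifit2 (22.4 CPM), Ifit3 (120 CPM), Irf7, Oas1a and Oasl. It was the highest for 4 of the 34 (20.1% of all genes), namely Mx1 (107 CPM), Mx2 (8.16 CPM), Ifi44l and Dtx3l. In its group the summed neutrophil (1697 CPM) and monocyte (4364 CPM) markers were lowest in this rat. The T-cell (490 CPM) and B-cell (605 CPM) sums were highest in it. The part of cell makeup in the values of these rats was not tested. Replicate 21 of that group was the lowest for 10 of the 34 (27.6% of all genes) and the highest for Bst2, Ifi35 and Oas1a (16.9% of all genes), shares near or below those of all genes. Its code was held by no other rat, so the fit took nothing from it. Summed reticulocyte markers were highest of the group in this rat (358500 CPM), and the leukocyte marker Ptprc was lowest (272 CPM).

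**Figure D4:**
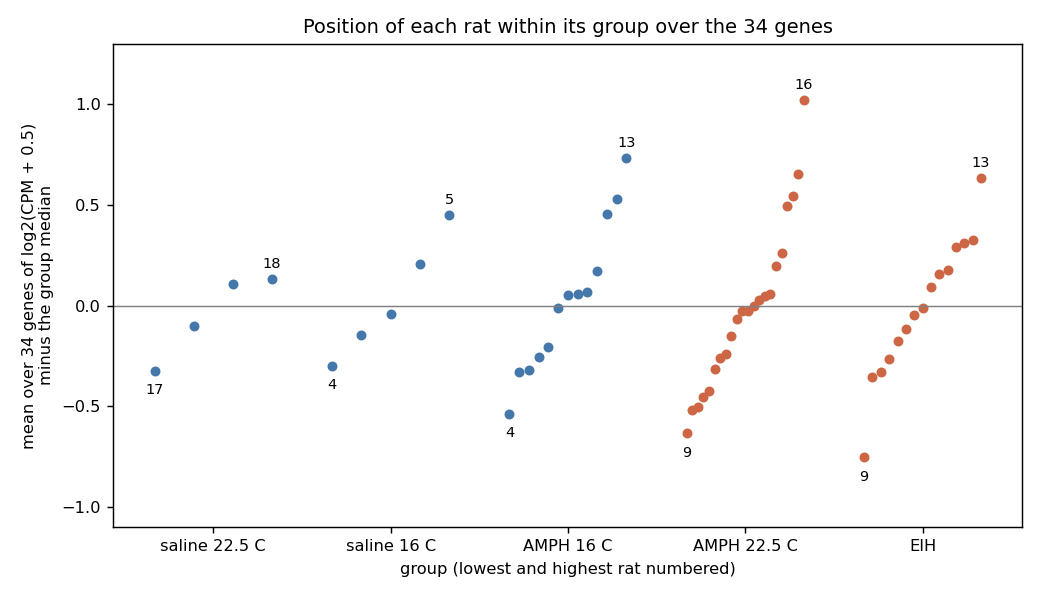
Position of each rat within its group, as the mean over the 34 genes of log2(CPM + 0.5) minus the group median, with the lowest and highest rat of each group numbered. AMPH 22.5 °C replicate 16 (1.02) and EIH replicate 9 (-0.754) lie farthest from their groups.

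The mean log2 level of the 34 genes, taken per rat, had a median of 5.06 in the control rats, 5.45 in saline rats at 16 °C, 5.08 in AMPH rats at 16 °C, 4.63 in AMPH rats at 22.5 °C and 4.64 in EIH rats. Its SD between rats was 0.213, 0.297, 0.372, 0.419 and 0.346. The order of these medians is a description of these rats, and neighbouring groups in it overlapped. Saline rats at 16 °C had 5.189 to 5.939, AMPH rats at 16 °C 4.489 to 5.76 and control rats 4.736 to 5.194. EIH rats had 3.897 to 5.285 and AMPH rats at 22.5 °C 4.026 to 5.683. The 2 saline groups, which are not neighbours in this order, overlapped only between 5.189 and 5.194.

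Coordination between the genes was described by correlating their log2(CPM + 0.5) over the 59 rats after the group means were removed. The rats share codes, and depth and cell makeup act on all genes of a rat at once. The median Pearson r over the 561 pairs was 0.304 (quartiles 0.103 and 0.529), and 477 pairs were positive, while the median over pairs of all genes was 0.000393. With the code also removed it was 0.345, and without the 2 rats farthest from their group medians (EIH replicate 9 and AMPH 22.5 °C replicate 16) it was 0.262. By Spearman's rho the median was 0.292. It was 0.535 within the 13 AMPH rats at 16 °C, 0.336 within the 22 AMPH rats at 22.5 °C (0.294 without replicates 16, 17 and 20) and 0.195 within the 15 EIH rats; these differences were not tested.

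The closest pair was Eif2ak2 and Ifih1 (r = 0.921), both acting on double-stranded RNA. Within AMPH rats at 16 °C r was 0.847, within EIH rats 0.86 and within the 19 AMPH rats at 22.5 °C outside the normothermic range 0.932. Ifi44 and Mx1 (0.876), Ifi44l and Samd9l (0.84), Mx1 and Samd9l (0.829) and Irf7 and Oas1a (0.808) followed. Ifit2 and Ifit3, neighbours in the RefSeq gene order that bind viral RNA together, had r = 0.789 with all groups pooled. Within EIH rats r for this pair was 0.86 (0.774 without the 2 farthest rats). It was 0.66 (0.348) within those 19 AMPH rats and 0.652 (0.473) within AMPH rats at 16 °C. The neighbours Rsad2 and Cmpk2 had 0.897 (0.827), 0.675 (0.566) and 0.477 (0.0956) within the same groups, in the same order.

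Against the mean of the other 33 genes, 23 of the 34 genes had r over 0.5 and 10 over 0.7. Parp14 (0.795), Herc6 (0.768) and Irf9 (0.767) were highest. Apart from Rsad2 and Bst2, Cmpk2 (0.25) and Zbp1 (0.245) were lowest. For Rsad2 and Bst2 no pooled r is given, since the AMPH rats at 22.5 °C fell into separate clusters for both genes. Between these 2 genes r was -0.556 within AMPH rats at 16 °C (-0.426 without the 2 farthest rats), -0.4 within the 19 AMPH rats at 22.5 °C (-0.246) and -0.231 within EIH rats (0.0435), so within EIH rats its sign rested on 2 rats.

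**Figure D5:**
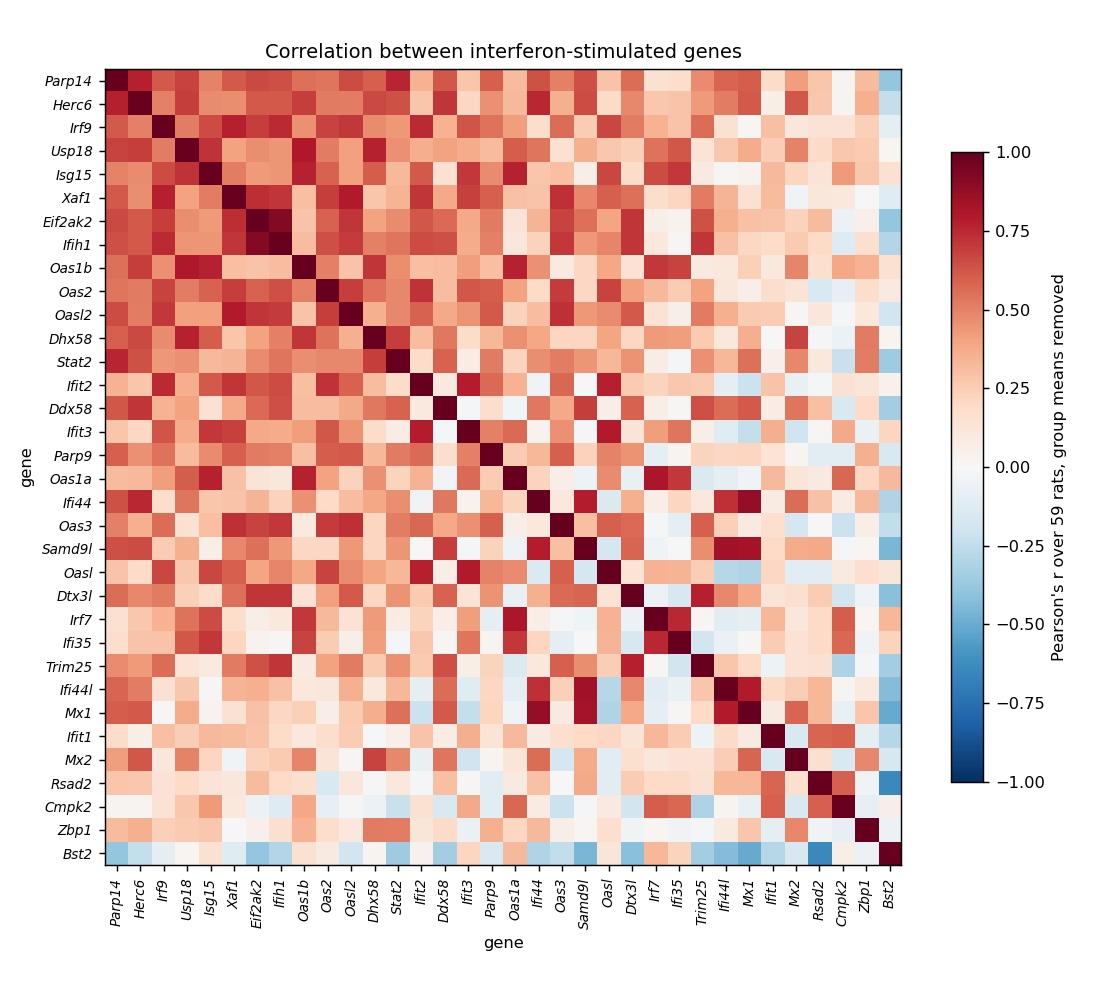
Pearson's r between the 34 genes over 59 rats with group means removed, with genes ordered by their correlation with the mean of the others. Most pairs are positive (477 of 561), and for Rsad2 and Bst2 the values pool AMPH 22.5 °C rats that fell into separate clusters.

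Among the 10 genes outside the 34 that correlated best with the mean of the 34 over the 59 rats were Irgm (r = 0.81), Parp12 (0.755), Trim21 (0.752), Ifi47 (0.74), Rnf114 (0.716), Rtp4 (0.696), Igtp (0.692), Usp25 (0.683) and Slfn1 (0.682). With the code also removed the r of these 9 genes was 0.626 to 0.82. Irgm, Igtp and Ifi47 are interferon-inducible GTPases.

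Of the upstream pathway (ligands, receptors, kinases, factors, sensors, adaptors and inhibitors), 28 of 34 listed genes were in all files and 27 were tested. Among the ligands, Ifng, the type II interferon, had 0 to 10 counts per rat (median 2) and a count in 40 of 59 rats. The type I interferon genes on the list were not analysed here. Among the receptors, Ifngr1, a chain of the type II receptor, was higher in AMPH at 16 °C than in EIH by 1.23 ± 0.25 and fell by 0.86 ± 0.24 from AMPH at 16 °C to AMPH at 22.5 °C. Ifngr2 (0.94 ± 0.21) and the inhibitor Socs3 (1.51 ± 0.42) were also higher in AMPH at 16 °C than in EIH, and Ifnar2, a chain of the type I receptor, was lower (-1.43 ± 0.35), as was the factor Irf8 (-1.05 ± 0.21). Ifnar2 was also higher in EIH than in the control (2.38 ± 0.61). No gene of this list was called in the other 5 comparisons.

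Of 51 further interferon-inducible genes, 46 were tested. In AMPH at 22.5 °C against AMPH at 16 °C, 8 were lower and 0 higher (beside 3.09% and 3.96% of all genes), with a median of -0.384. The lower genes included the immunoproteasome subunit Psmb9 (-0.81 ± 0.18), the peptide transporter Tap1 (-0.66 ± 0.15), Oas1k (-1.16 ± 0.26) and Znfx1 (-0.95 ± 0.23). In AMPH at 16 °C against EIH, 11 were higher and 0 lower (beside 4.74% and 5.27% of all genes), with a median of 0.26. Among the higher genes were Psmb9 (1.23 ± 0.19), Gbp2 (1.38 ± 0.23) and Ifitm1 (1.64 ± 0.29). Plscr1, a membrane protein, was higher in AMPH at 22.5 °C than in EIH (1.99 ± 0.44) and the control (3.05 ± 0.76). Ifitm3 was also higher in AMPH at 22.5 °C than in EIH (1.69 ± 0.44). Against the control, Epsti1 was lower in AMPH at 22.5 °C (-1.15 ± 0.30). Psmb8 (-0.97 ± 0.22) and Psmb10 (-0.72 ± 0.21) were lower in EIH than in the control.

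In bulk blood, fewer cells of a type and less RNA per cell cannot be told apart. The sum of 8 T-cell markers was 308 to 460 CPM in control rats and 53.8 to 296 CPM in EIH rats, and that of 8 neutrophil markers was 1130 to 15600 CPM and 12900 to 29600 CPM in the saline groups at 22.5 °C and 16 °C. Between AMPH at 22.5 °C and AMPH at 16 °C the natural killer markers Ncr1 (-1.64 ± 0.28) and Nkg7 (-0.84 ± 0.27) fell, with summed natural killer markers at 37.4 to 275 CPM and 91.8 to 224 CPM, and 0 of 8 T-cell, 8 neutrophil, 7 monocyte and 4 B-cell markers was called. Of 6 platelet markers Ppbp rose (1.32 ± 0.30), and of 6 reticulocyte markers Hba-a2 and Slc4a1 fell. Summed reticulocyte markers were at 22300 to 359000 CPM in AMPH at 22.5 °C and 41600 to 162000 CPM in AMPH at 16 °C. They were at 19900 to 504000 CPM in EIH, 45200 to 64700 CPM in the control and 42600 to 88000 CPM in saline at 16 °C. Between AMPH at 16 °C and EIH, the neutrophil markers S100a8 (1.59 ± 0.38) and S100a9 (1.16 ± 0.35) were higher in AMPH rats (2 of 8 called), with summed neutrophil markers at 8360 to 25300 CPM and 1850 to 11100 CPM. In the same comparison Ncr1 (1.24 ± 0.29), the T-cell marker Cd2 (0.78 ± 0.25) and the cardiac Nppa (4.55 ± 1.49) were higher, and the B-cell marker Cd22 (-0.79 ± 0.23) and the monocyte marker Csf1r (-0.73 ± 0.24) were lower. Each was the only gene of its type called, of 5 natural killer, 8 T-cell, 6 cardiac muscle, 4 B-cell and 7 monocyte genes. Cd2 (-1.68 ± 0.42) and Cd4 (-1.58 ± 0.46) were lower in EIH than in the control (2 of 8 T-cell markers called). Of the 6 platelet markers Ppbp (2.35 ± 0.55) and P2ry12 (1.80 ± 0.49) were higher in EIH than in the control. Both were also higher in AMPH at 22.5 °C than in the control (2.88 ± 0.48 and 1.52 ± 0.41). The leukocyte marker Ptprc was at 272 to 932 CPM over the 59 rats, and no blood cell marker was at 0 in all rats of a group. Over the 59 rats with group means removed, the mean of the 34 genes had r = 0.378 with the natural killer sum (0.228 without the 2 farthest rats), 0.352 with Ptprc and -0.115 to 0.164 with the monocyte, neutrophil, T-cell, B-cell, plasmacytoid dendritic cell, platelet, reticulocyte and cardiac muscle sums. The part of these cell types in the differences above was not tested.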

How the data were processed

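Globin-depleted whole blood RNA of 64 rats had been sequenced as stranded mRNA libraries. The authors deposited 1 table per rat of expected counts per gene, made with RSEM 1.2.0 and Bowtie 0.12.9 (CASAVA 1.8.2) on rn5 per the submitters' processing notes; expected counts split reads shared by near-identical genes by estimate. Here the expected counts were rounded, and genes listed in all files were kept (17366 of 26405, in 6 gene lists), then those with at least 10 counts in at least 4 rats (14000). Rats with Mb above 5000 counts were left out (EIH 12, AMPH 16 °C 2 and 12, saline 22.5 °C 20 and 22).

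All 5 groups entered 1 edgeR 4.0.16 quasi-likelihood fit (R 4.3.3, TMM, group and file code, 42 residual degrees of freedom, biological coefficient of variation 0.419), tested on simulated data. The 34 genes and the other lists were chosen with earlier results of these data known. Named were every member called in a comparison, otherwise the 5 with the smallest p, members with a single-rat outlier, and the 10 other genes that correlated best with the members' mean; up to 4 genes of a list were named by smallest p, and genes beyond these rules (such as Irf7, Mx1, Isg15 and the marker genes) were named after their values were seen. Of the 10 correlated genes, 1 is not reported here. Correlations used log2(CPM + 0.5). All p values come from edgeR unless DESeq2 1.42.0 is named, and are adjusted by Benjamini-Hochberg over all genes tested. Each sample is 1 rat, and no 2 libraries of a group agreed within sampling noise. The depth per rat limits precision only for the lowest counts, and replicate numbers did not pair rats. Alternatives were another scaling, filter, test, code term, replicate block, rat set and each control rat left out. Python 3.11.15, numpy 2.4.6, pandas 2.3.3, scipy 1.17.1 and matplotlib 3.10.9 were used.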

Additional observations from a re-analysis of the deposited data

Results flagged for a closer look

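Of the 68 combinations of gene and saline group, 3 had a rat farther from the others than Dixon's 95% limit, where chance alone flags about 1 in 20. In saline at 16 °C, replicate 5 was high for Mx1 (97.9 CPM, next rat 66.5) and for Mx2 (13.4 CPM, next rat 6.30). In saline at 22.5 °C, replicate 19 was low for Dhx58, the sensor LGP2 (4.49 CPM, next rat 7.00). Leaving out control rat 19 raised the interferon-stimulated genes called between AMPH at 22.5 °C and the control from 1 to 4. Dhx58 was not among these 4, which were Bst2, Ifi44, Mx1 and Mx2. The share of all genes called rose as well, from 2.49% to 9.47%, and the cause was not tested.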

How the results depend on the processing

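The alternatives were followed for the genes called in a comparison, otherwise for the 5 with the smallest p. None of their fitted log2 differences changed direction. Of the values followed, 921 left the call as it was, 55 gained it and 16 lost it. The direction of other differences given above was not followed, among them Bst2 between the saline groups and Rsad2 between AMPH at 22.5 °C and EIH. For AMPH at 22.5 °C against the control, the count of 1 gene became 8 without the code (12.0% of all genes) and 3 with DESeq2's Wald test (7.56%). It became 2 with all rats kept (7.15%) and 0 in the 2 groups' shared codes alone (0.0%). Without AMPH replicates 16 and 17 it was 12 (18.1%), as it was without 16, 17 and 20 (19.3%). With single rats left out it was 0 to 7, beside 0.0574% to 13.9% of all genes. For EIH against the control, the count of 1 became 9 without the code (23.8% of all genes), 5 with DESeq2's Wald test (8.89%) and 4 with all rats kept (8.13%). Without AMPH replicates 16 and 17 it was 8 (17.2%), and without 16, 17 and 20 it was 10 (17.9%). With single rats left out it was 0 to 7, beside 0.0359% to 13.9% of all genes. For AMPH at 22.5 °C against AMPH at 16 °C, 7 became 13 in shared codes alone (11.1% of all genes) and 11 without replicates 16, 17 and 20 (8.09%). For AMPH at 22.5 °C against EIH, 1 became 0 without the code (5.48% of all genes) and 0 in shared codes alone (0.129%). For AMPH at 16 °C against EIH, 7 became 12 without the code (21.2% of all genes). For the difference of the AMPH effects, 0 became 1 without the code (0.143% of all genes). It became 1 without AMPH replicates 16 and 17 (0.0934%) and 2 without 16, 17 and 20 (0.187%). The latter 2 were Bst2 and Rsad2, the genes by which those rats were picked. DESeq2 size factors moved the Parp14 median of the control from 82.5 to 78.0 CPM. The cause of these shifts was not tested.

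Replicate numbers were shared between groups, but rats of the same number shared only a number: for saline and AMPH at 22.5 °C their deviations had r from -0.107 to 0.596, with 3 of 4 pairs in 1 code, and 1 of 4 control rats correlated best with its own number. With the replicate block in place of the code the counts were 1 (Rsad2 in place of Bst2) for AMPH at 22.5 °C (0.307% of all genes) and 0 for EIH (0.0%) against the control, 11 for AMPH at 22.5 °C against AMPH at 16 °C (10.3%), 0 for AMPH at 22.5 °C against EIH (2.59%) and 14 for AMPH at 16 °C against EIH (18.0%).

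The fit of only the groups compared was not run for EIH against the control, saline at 16 °C against the control, AMPH against saline at 16 °C and the difference of the AMPH effects, since these share too few codes. The control group of 4 rats limits each comparison with it.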

Other observations

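The 5 rats left out for Mb entered no comparison apart from the alternative with all rats kept. EIH replicate 12 had 344 CPM of Rsad2 and 134 CPM of Bst2, within the ranges of its group. Saline 22.5 °C replicates 20 and 22 had 1126 and 962 CPM of Rsad2, and 20.7 and 23.8 CPM of Bst2, the latter above the 4 control rats used. AMPH 16 °C replicate 2 had 1583 CPM of Rsad2 and 11.2 CPM of Bst2, within its group, while replicate 12 had 471 CPM of Rsad2 and 33.7 CPM of Bst2, just beyond the normothermic range for both genes.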
